A study of Mus musculus with 10 samples.

Results

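The genes described here are 9 members of the Wnt and R-spondin system of the liver, measured on 10 Affymetrix arrays of preparations enriched for liver sinusoidal endothelial cells (LSEC), the porous lining of the liver's smallest vessels. They were chosen by name, with earlier results of these data known. They are the Wnt ligands Wnt2 and Wnt9b, the R-spondins Rspo1 and Rspo3 and the Wnt carrier Wls. The others are the receptor Fzd4, the R-spondin receptor Lgr5 and the ubiquitin ligases Rnf43 and Znrf3. Each had 1 probe set, so 9 of the 24704 genes with a named probe set are described. In the CDAA group, C57BL/6N females aged 10 weeks at the start were kept for 10 weeks on a CDAA diet with 31% of calories from fat and 1% cholesterol. In the Std group, control siblings received a control diet. The labels do not spell out CDAA, which is commonly short for choline-deficient and amino acid-defined. The material of 1 array came from 3 pooled mice, with cells captured on magnetic beads against CD146. There were 5 pools per diet, which the labels call biological replicates, numbered CDAA 1 to 5 and Std 1 to 5. One label field gives the treatment as 10 days where titles and growth protocol give 10 weeks, and weeks are used here. Mice with a Gata4 deletion, which the series' design text mentions, are not analysed here.

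Wnt proteins are lipid-modified by the acyltransferase Porcn, carried to the cell surface by Wls and bound by a Frizzled receptor together with Lrp5 or Lrp6, after which beta-catenin escapes destruction and acts with TCF/LEF factors on target genes. R-spondins strengthen the signal by binding LGR receptors and drawing the ubiquitin ligases Rnf43 and Znrf3 away from Frizzled. In the liver, endothelial cells around the central vein are a known source of Wnt2, Wnt9b and Rspo3, and these signals maintain the pericentral programme of neighbouring hepatocytes.

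The values were RMA log2 signals, and the median over all probe sets was 3.89 on each of the 10 arrays. Detection calls were not used, so a signal below that median is not known to lie above background, and signals of different probe sets are not compared with each other. All 13 measured LSEC markers and all 12 pan-endothelial markers had a mean signal at or above the median of all genes. So did all 9 measured hepatocyte, all 7 cholangiocyte and all 7 recruited macrophage markers. This level therefore does not set LSEC apart from other cells. Transcripts known from other cell types gave signal in the isolate, whose purity was not measured. Pan-endothelial markers averaged 10.69 ± 0.43 over the CDAA arrays, against 11.44 ± 0.07 over the Std arrays (SD, n = 5 each), with CDAA 3 at 10.06 and CDAA 1 at 10.45 the lowest of all arrays. The stellate cell and fibroblast list mean ranged from 6.28 to 7.47 in CDAA and from 5.56 to 6.13 in Std, that of recruited macrophages from 7.73 to 9.19 in CDAA and from 5.01 to 6.03 in Std, and that of cholangiocytes from 7.07 to 7.86 in CDAA and from 4.34 to 5.46 in Std. The hepatocyte list mean ranged from 7.09 to 8.31 in CDAA and from 6.81 to 7.52 in Std. The neutrophil marker mean was 5.18 to 6.12 in CDAA and 3.99 to 4.26 in Std, except for Std 3, which stood apart at 9.15; 6 of the 8 neutrophil markers rose in fits without Std 3. In pooled bulk samples of this kind, fewer cells of a type and less RNA per cell cannot be told apart.

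A ligand, the ligand carrier and a receptor were lower in the CDAA isolate. Wnt9b was 2.12-fold lower, Fzd4 1.76-fold lower and Wls 1.31-fold lower, whereas Wnt2, Rspo1, Rspo3, Lgr5, Rnf43 and Znrf3 did not pass the test. "Rose" and "fell" are used here of genes past a Benjamini-Hochberg adjusted p of 0.05 over all 24704 genes by limma, and a difference is CDAA minus Std on the log2 scale. Of the 9 genes 3 fell and 0 rose, where 16.6% of all genes passed, 9.13% falling and 7.49% rising. Of the 12352 genes at or above the median mean signal, to which 8 of the 9 belong, 29.8% passed, 16.8% falling and 13% rising. The 5 CDAA values lay below all 5 Std values for 3 of the 9, as for 7.73% of all genes, and above them for 0, as for 6.16% of all genes, 13.9% in either direction. The median difference was -0.39 over the 9 genes, -0.02 over all genes and -0.07 over the genes at or above the median signal. Because the 9 genes and the lists below were chosen with earlier results known, their counts beside these shares are a description and not a test. Wls lost its call without CDAA 1, without CDAA 2, without CDAA 3 and without any single Std array, and without CDAA 1 and CDAA 3 together only Wnt9b and Fzd4 passed.

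**Figure D1:**
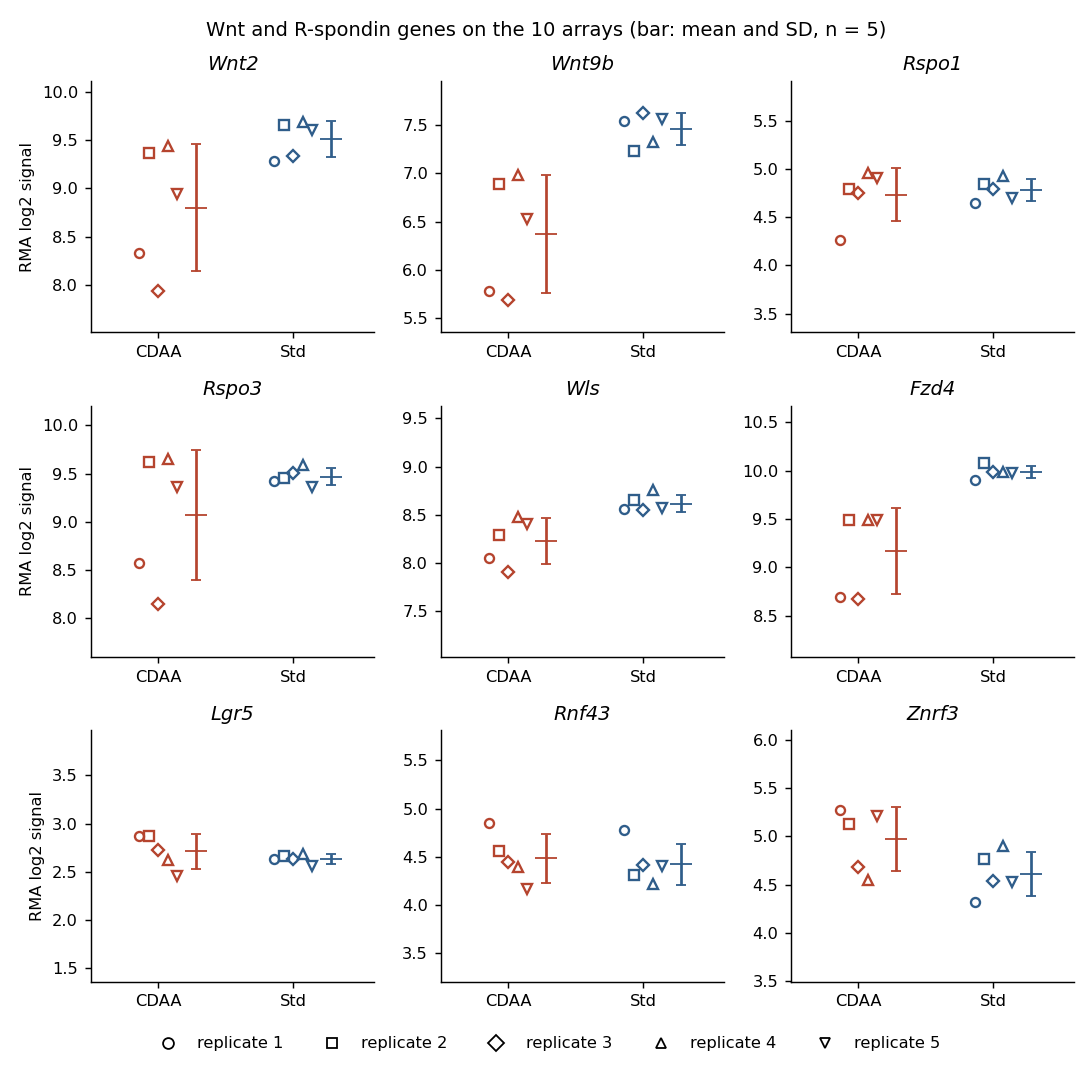
RMA log2 signal (y axis, each panel spanning the same 2.6 log2 units) of the 9 genes in the CDAA and Std arrays; symbols mark replicate numbers, and bars give mean and SD (n = 5). CDAA 1 and CDAA 3 are the lowest arrays for Wnt2, Wnt9b, Rspo3, Wls and Fzd4, while the Std arrays lie close together.

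Wnt9b and Wnt2 are the ligands that pericentral endothelium is known to supply. Wnt9b (probe set 22412_at) had log2 signals of 5.79, 6.89, 5.68, 6.98 and 6.53 in CDAA 1 to CDAA 5, against 7.54, 7.23, 7.63, 7.33 and 7.57 in Std 1 to Std 5. Every CDAA array lay below every Std array, and CDAA 1 and CDAA 3 were the lowest. The difference was -1.08 ± 0.24 (SE, limma adjusted p = 0.00901, n = 5 each). Without CDAA 1 and CDAA 3, the arrays with the lowest endothelial marker means, the fall of Wnt9b was smaller but still passed (-0.66, limma adjusted p = 0.0132). Wnt2 (22413_at) had signals of 8.33, 9.36, 7.93, 9.44 and 8.94 in CDAA 1 to CDAA 5, against 9.28, 9.65, 9.33, 9.69 and 9.60 in Std 1 to Std 5. CDAA 1, CDAA 3 and CDAA 5 lay below all Std arrays, while CDAA 2 and CDAA 4 lay within the Std range. Its difference of -0.71 ± 0.26, with a 95% confidence interval of -1.27 to -0.15, did not pass (SE, limma adjusted p = 0.0832). Without CDAA 2 or without CDAA 4 Wnt2 passed, at -0.85 and -0.87, and without CDAA 1 and CDAA 3 its difference was -0.27 and did not pass.

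The stretches before the start sites of both ligands are shown because both genes are supplied by the same endothelium and both were lowest in the same pools. They are the 250 bases before the start site listed by RefSeq, read 5′ to 3′ on the gene's strand in build GRCm38.p6, which need not be the build of the array. That of Wnt2 is at chr6:18030446-18030695 and that of Wnt9b at chr11:103749822-103750071, both on the minus strand. Capitals mark matches to a GATA motif, the sequence bound by the GATA family to which the LSEC regulator Gata4 belongs.
Wnt2: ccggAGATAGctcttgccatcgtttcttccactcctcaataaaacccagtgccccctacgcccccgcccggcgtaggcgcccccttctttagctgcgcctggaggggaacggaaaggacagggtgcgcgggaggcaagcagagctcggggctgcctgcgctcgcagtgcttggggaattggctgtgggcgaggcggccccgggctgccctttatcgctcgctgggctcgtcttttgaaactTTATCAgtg
Wnt9b: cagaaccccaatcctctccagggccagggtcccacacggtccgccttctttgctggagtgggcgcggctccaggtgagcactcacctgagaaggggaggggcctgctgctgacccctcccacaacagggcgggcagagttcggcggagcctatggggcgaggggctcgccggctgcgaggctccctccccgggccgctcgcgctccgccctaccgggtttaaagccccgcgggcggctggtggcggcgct
The GATA motif was searched on both strands as the letters AGATAA, then as the letters AGATAG, further as the letters TGATAA, and lastly as the letters TGATAG, and 26.5% of 32851 such windows held at least 1 match. Wnt2 held 2, whose leftmost bases were 246 and 9 bases before the start, and Wnt9b held none. A TCF/LEF motif, the letters CTTTGAA or else the letters CTTTGAT on both strands, was found in neither, and 7.48% of the windows held it. The table held start sites for 6 of the 9 genes, and Fzd4, Wls and Rspo1 held neither motif. Rnf43 had 2 listed start sites, of which 1 held 3 GATA matches and the other none. The windows of Wnt9b and Fzd4 were rich in G and C, at 72% and 72.8%, against a median of 52.4% over all windows. A match is a description of the letters and not of binding.

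The R-spondins did not pass the test. Rspo3 (72780_at), the R-spondin of central vein endothelium, had signals of 8.58, 9.62, 8.15, 9.65 and 9.36 in CDAA 1 to CDAA 5, against 9.42, 9.45, 9.50, 9.59 and 9.37 in Std 1 to Std 5. CDAA 1 and CDAA 3 lay far below the Std range, CDAA 5 just below it, and CDAA 2 and CDAA 4 just above it. The difference was -0.39 ± 0.26, with a 95% confidence interval of -0.95 to 0.17 (SE, limma adjusted p = 0.362). The direction of the Rspo3 difference rested on CDAA 1 and CDAA 3, since without both it was 0.08. The SD of Rspo3 was 0.67 in CDAA and 0.09 in Std. Rspo1 (192199_at), a second R-spondin ligand, had signals of 4.26, 4.79, 4.75, 4.96 and 4.91 in CDAA 1 to CDAA 5, against 4.64, 4.85, 4.79, 4.93 and 4.70 in Std 1 to Std 5. Only CDAA 1 lay below the Std range, and CDAA 4 lay just above it. The Rspo1 difference was -0.05, with a 95% confidence interval of -0.33 to 0.24 (limma adjusted p = 0.865), and 0.07 without CDAA 1. Of 8 mesothelial markers, a list included because other cells of the isolate could carry such transcripts, 1 rose. It was Krt19, which is also on the cholangiocyte list, where all 7 measured markers rose. The median difference of the mesothelial list was 0.00045. Its mean, with Krt19 included, was 4.53 to 4.98 in CDAA and 4.30 to 4.74 in Std.

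Wls and Fzd4 serve the release and the reception of Wnt. Wls (68151_at), the membrane protein that escorts Wnts to the surface, had signals of 8.05, 8.29, 7.91, 8.47 and 8.41 in CDAA 1 to CDAA 5, against 8.56, 8.66, 8.54, 8.75 and 8.57 in Std 1 to Std 5. The groups did not overlap, but the highest CDAA array, at 8.47, lay close to the lowest Std array, at 8.54. The difference was -0.39 ± 0.12 (SE, limma adjusted p = 0.0417), and -0.22 without CDAA 1 and CDAA 3 (limma adjusted p = 0.187). Fzd4 (14366_at), the Frizzled that also receives the non-Wnt ligand norrin on endothelium, had signals of 8.69, 9.49, 8.67, 9.49 and 9.49 in CDAA 1 to CDAA 5, against 9.91, 10.08, 9.99, 9.98 and 9.97 in Std 1 to Std 5. All CDAA arrays lay below all Std arrays, in 2 tiers with CDAA 1 and CDAA 3 at the bottom. The difference was -0.82 ± 0.18 (SE, limma adjusted p = 0.00828), and -0.49 without CDAA 1 and CDAA 3 (limma adjusted p = 0.00611). Fzd4 and Wnt9b passed in all 10 fits that left out a single array, and Wls in 2 of 10.

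Lgr5, Rnf43 and Znrf3 limit or transmit the R-spondin signal and are themselves induced by beta-catenin in many tissues. Lgr5 (14160_at), a receptor of pericentral hepatocytes in the liver, had signals of 2.45 to 2.88 in CDAA and 2.56 to 2.69 in Std, below the array median on all 10 arrays, so that a change could not be judged. Rnf43 (207742_at) ranged from 4.16 to 4.86 in CDAA and from 4.22 to 4.77 in Std, with a difference of 0.06 and a 95% confidence interval of -0.25 to 0.37 (limma adjusted p = 0.840). Neither gene separated the diets. Znrf3 (407821_at) had signals of 5.28, 5.13, 4.68, 4.55 and 5.21 in CDAA 1 to CDAA 5, against 4.32, 4.77, 4.53, 4.90 and 4.53 in Std 1 to Std 5. CDAA 1, CDAA 2 and CDAA 5 lay above all Std arrays, the others within the Std range. Its difference of 0.36 ± 0.16 did not pass (SE, 95% confidence interval 0.0051 to 0.72, limma adjusted p = 0.170). Unlike the ligands, Znrf3 was not lowest in CDAA 3 and CDAA 1, and CDAA 1 was its highest array.

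Across the CDAA pools, Wnt2, Wnt9b, Rspo3, Wls and Fzd4 moved with the endothelial markers. Among the CDAA arrays, Wnt2, Wnt9b, Rspo3 and the pan-endothelial marker mean had the same order, CDAA 3 lowest, then CDAA 1, CDAA 5, CDAA 2 and CDAA 4. That mean had an SD of 0.43 in CDAA and 0.07 in Std, so the correlations below rest mostly on the CDAA arrays. In Std the order was not shared. Std 4, with the highest endothelial mean at 11.52, had the highest Wnt2, Rspo3 and Wls, but Wnt9b at only 7.33. Std 1, at 11.50, had the lowest Wnt2 and Fzd4, at 9.28 and 9.91. Deviations from each diet's mean were compared over the 10 arrays as a description, since the points share the arrays' makeup and normalization. For Rspo3 against the pan-endothelial mean, Pearson's r was 0.973 and Spearman's rho 0.915, and r was 0.953 without CDAA 3 and CDAA 4, the arrays farthest from the median. For Wnt2 r was 0.942 and rho 0.879, with r of 0.848 without those arrays, and for Wnt9b r was 0.898 and rho 0.733, with r of 0.806 without them. Fzd4 and Wls had r of 0.885 and 0.911, with rho of 0.839 and 0.927, and r of 0.855 and 0.742 without those arrays. The relation was weaker for Rspo1, with r of 0.463 and rho of 0.697, and r of 0.711 without those arrays. For Lgr5, Rnf43 and Znrf3 r was -0.208, -0.200 and 0.0066. The ligands ran the other way from the stellate cell and fibroblast mean, with r of -0.762 for Wnt2, -0.855 for Wnt9b and -0.855 for Rspo3 (rho -0.733, -0.867 and -0.903). Without CDAA 3 and CDAA 4 these r were -0.452, -0.701 and -0.746. With the stellate mean as a covariate Wnt2 was at 0.33, Wnt9b at 1.1e-05 and Rspo3 at 0.77, and none of them passed. That mean itself differed with diet, and the part of stellate cells and fibroblasts in the results was not tested.

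**Figure D2:**
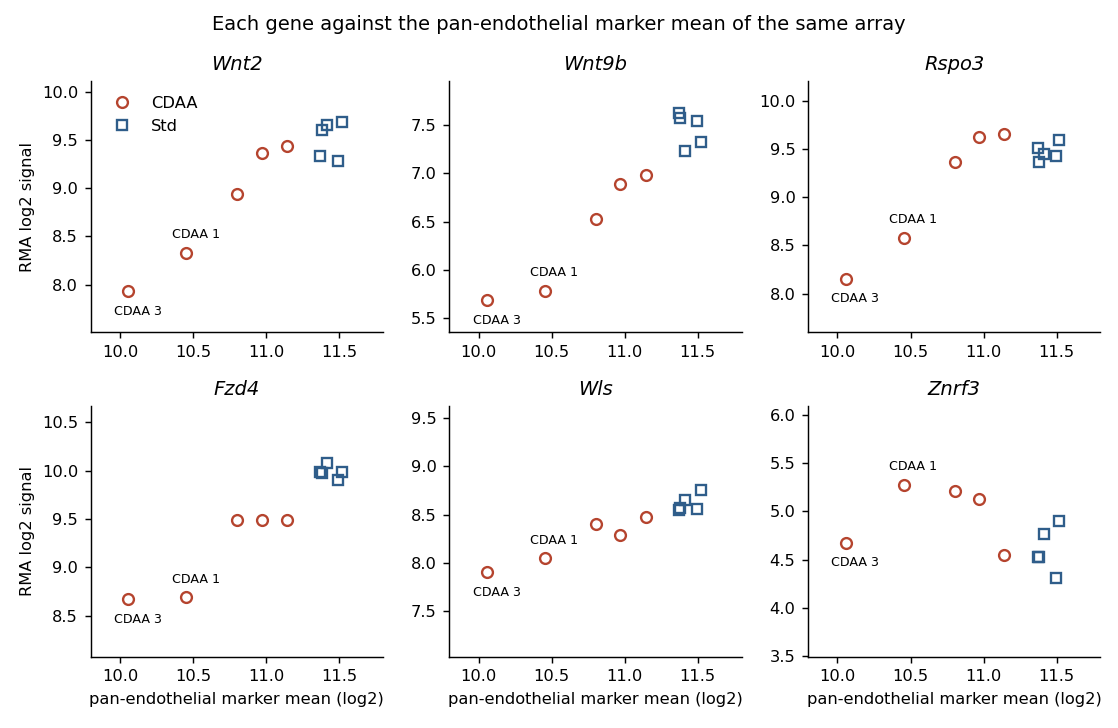
RMA log2 signal of 6 genes (y axis, 2.6 log2 units in each panel) against the mean log2 signal of 12 pan-endothelial markers on the same array (x axis); circles are CDAA and squares Std arrays. CDAA 3 and CDAA 1, with endothelial means of 10.06 and 10.45, carry the lowest values of all genes shown except Znrf3.

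By a measure of likeness, the Pearson r of the deviations over 10 arrays among 11386 brighter genes, the genes most like Rspo3 were Efnb2, the ephrin-B2 ligand of arterial endothelium (r = 0.989), the endothelial adhesion molecule Pecam1 (0.988), the neonatal Fc receptor gene Fcgrt (0.988) and the exchange factor gene Fgd5 (0.987). Those most like Wnt2 were Nxpe3 (0.989), Tmem9 (0.987), the fucosyltransferase gene Fut11 (0.986) and Car8 (0.983). Those most like Wnt9b were the cyclin Ccnd3 (0.975), the adaptor subunit gene Ap2a2 (0.970), Ttc7b (0.970) and Pcdhb17 (0.965). Within CDAA and within Std alone r was 0.999 and -0.035 for Fgd5 with Rspo3, so that this likeness lay in the CDAA arrays. Efnb2, Pecam1 and Fcgrt had r of 0.690, 0.674 and 0.728 with Rspo3 within Std. For Nxpe3 with Wnt2 r was 0.992 in CDAA and 0.959 in Std. All these genes were picked by r over the same arrays, so a high r within either diet is no separate support.

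When each array was centred on its pan-endothelial marker mean, Wnt2, Wnt9b, Rspo3, Wls and Fzd4 did not pass the test. This centring moved the median difference of all genes to 0.73, so values are to be read against that shift. Wnt9b was then at -0.33 ± 0.19 (SE, limma adjusted p = 0.114), the lowest of the 9, Fzd4 at -0.07, Wnt2 at 0.04, Rspo3 at 0.36 and Wls at 0.36, all below the median of all genes. Rspo1 at 0.70 lay near that median, and Rnf43 at 0.81, Lgr5 at 0.83 and Znrf3 at 1.11 lay above it. These 4 passed, but so did 19643 of 24704 genes, 19525 of them higher. When that mean, which itself differed with diet, entered the fit as a covariate, 0 of the 9 passed by limma and 1 had an unadjusted p under 0.05, where 228 of all genes passed. Wnt9b was then at -0.12, Wnt2 at 0.39 and Rspo3 at 0.74.

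**Figure D3:**
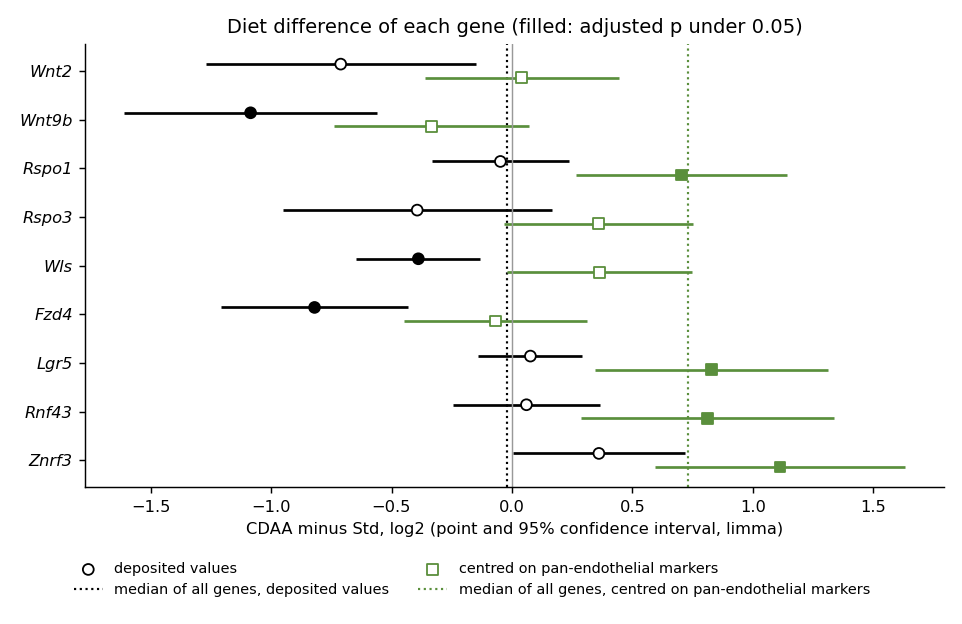
CDAA minus Std differences (x axis, log2) with 95% confidence intervals for the 9 genes (y axis), from the deposited values (circles) and after centring each array on its pan-endothelial marker mean (squares); filled symbols passed an adjusted p of 0.05, and dotted lines give the median of all genes, -0.02 and 0.73. Wnt9b, Wls and Fzd4 are filled with the deposited values and open after centring, where Wnt9b is the lowest at -0.33.

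The remaining pathway genes are given by role, each list beside the same 9.13% of all genes that fell and 7.49% that rose. Of genes at or above the median signal 16.8% fell and 13% rose, which is the nearer share for lists made mostly of such genes. These made up 9 of 11 TCF/LEF and coactivator genes and 9 of 10 planar polarity genes, but only 2 of 17 other Wnt ligands. Of the 33 genes named below that passed, 4 kept direction and call with the pan-endothelial covariate, 3 with the stellate mean, 19 with the hepatocyte mean and 14 after pan-endothelial centring. Of all genes 228, 82 and 1447 passed with these covariates, against 4106 without. Most other Wnt ligands had low signals: only 2 of 17 had a mean at or above the median of all genes. Wnt5a, a mostly non-canonical ligand, rose by 0.50 to 3.18 ± 0.12 in CDAA, against 2.68 ± 0.18 in Std (SD, n = 5 each), both below the array median, as were the group means of Wnt7b, which rose by 0.37. Wnt9a fell by 0.35, to 3.61 ± 0.15 in CDAA, below the array median, against 3.96 ± 0.10 in Std. Wnt7b and Wnt9a lost their calls in 8 and 6 of the 10 fits without a single array. The 4 other R-spondins and LGR receptors did not pass, and the smallest p was that of Lgr6, at a difference of -0.22 (limma adjusted p = 0.303). The median difference was -0.08 for the ligands and 0.12 for these 4 genes.

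In the acylation and release list, 1 of 8 genes rose, 1 fell, and the median was 0.04. Porcn, the acyltransferase that makes Wnts fit for export by Wls, had signals of 4.85, 5.40, 4.91, 5.96 and 6.00 in CDAA 1 to CDAA 5, against 6.43, 6.25, 6.32, 6.41 and 6.42 in Std 1 to Std 5. All CDAA values lay below the Std values, with CDAA 1 and CDAA 3 lowest. It fell by 0.94 ± 0.21 (SE, limma adjusted p = 0.0102), and by 0.58 without CDAA 1 and CDAA 3 (limma adjusted p = 0.0262). Porcn did not pass after pan-endothelial centring (-0.19), nor with the pan-endothelial (-0.19), stellate (-0.13) or hepatocyte (-0.61) mean as a covariate. Sdc1, the heparan sulphate proteoglycan syndecan-1, rose by 0.66.

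Among 15 other Frizzleds and co-receptors 3 rose and 2 fell, with a median of 0.10. Both co-receptors of the beta-catenin branch, Lrp5 and Lrp6, fell. Lrp5 had a highest signal of 9.68 in CDAA, against a lowest of 10.13 in Std, so that the groups did not overlap. It fell by 0.97 ± 0.14 (SE, limma adjusted p = 9.08e-04), and Lrp6 fell by 0.59 ± 0.12 (limma adjusted p = 0.00579). Neither passed after pan-endothelial centring, with Lrp5 at -0.22 and Lrp6 at 0.16, nor with that mean as a covariate, with Lrp5 at -0.45 and Lrp6 at -0.38. Ror1, a receptor of the non-canonical branch, rose by 1.83 ± 0.33 (limma adjusted p = 0.00305), with 5.14 to 6.53 in CDAA and 2.95 to 4.60 in Std. Its Std mean of 3.86 lay below the array median, so the size of this rise is uncertain. Ptk7, a pseudokinase of planar polarity, rose by 0.66. Stellate cell and fibroblast markers were higher in the same pools, with a list mean of 6.97 ± 0.48 in CDAA and 5.88 ± 0.24 in Std. With that mean as a covariate Ror1 was at 1.44 and Ptk7 at 0.56, and neither passed. That mean itself differed with diet, and the part of these cells in the rises was not tested. Of 4 partners known for endothelial Wnt reception in brain and retina, 2 fell, Reck by 0.83 and Adgra2, which encodes GPR124, by 0.60, with a list median of -0.43.

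Of 17 genes listed as Wnt antagonists, secreted or at the membrane, 1 rose and 2 fell, with a median of -0.0018. Frzb, a secreted Frizzled-like Wnt binder, had 6.79, 6.41, 6.75, 6.56 and 6.51 in CDAA 1 to CDAA 5, against 5.49, 5.54, 5.26, 5.53 and 5.32 in Std 1 to Std 5. The groups lay apart with little spread inside each, and Frzb rose by 1.18 ± 0.10 (SE, limma adjusted p = 4.24e-05). Dkk3, a divergent Dickkopf protein, fell by 0.93, and Kremen1, a receptor of Dickkopf proteins, fell by 0.67.

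Inside the cell, 2 of 15 destruction complex and Dishevelled genes fell, the scaffold Apc by 0.61 and its membrane recruiter Amer1 by 0.75, and 0 rose, with a median of -0.17. All 15 lay at or above the median signal of all genes, where 16.8% of genes fell, so this count is no excess. Apc did not pass without CDAA 1 and CDAA 3 (-0.45), nor Amer1 without Std 4 (-0.67). Of 11 measured TCF/LEF factors, coactivators and corepressors of the Tle family 6 fell and 0 rose, with a median of -0.38. The repressive factor Tcf7l1 fell by 0.98, to 8.18 ± 0.49 in CDAA against 9.16 ± 0.22 in Std (SD, n = 5 each). The coactivators Bcl9l, Pygo2 and Bcl9 fell by 0.76, 0.61 and 0.59. Fits without CDAA 1, without Std 1 or without Std 4 left 3 that fell, and with the pan-endothelial covariate the 4 genes named here did not pass. After pan-endothelial centring 3 were higher past the threshold and 0 lower, where 19525 of all genes were higher. Without CDAA 1 and CDAA 3 the count was 4, and Bcl9 was among those that no longer passed (-0.47). Bcl9 also lost its call without CDAA 1, without CDAA 3 and without Std 1, Std 4 or Std 5.

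**Figure D4:**
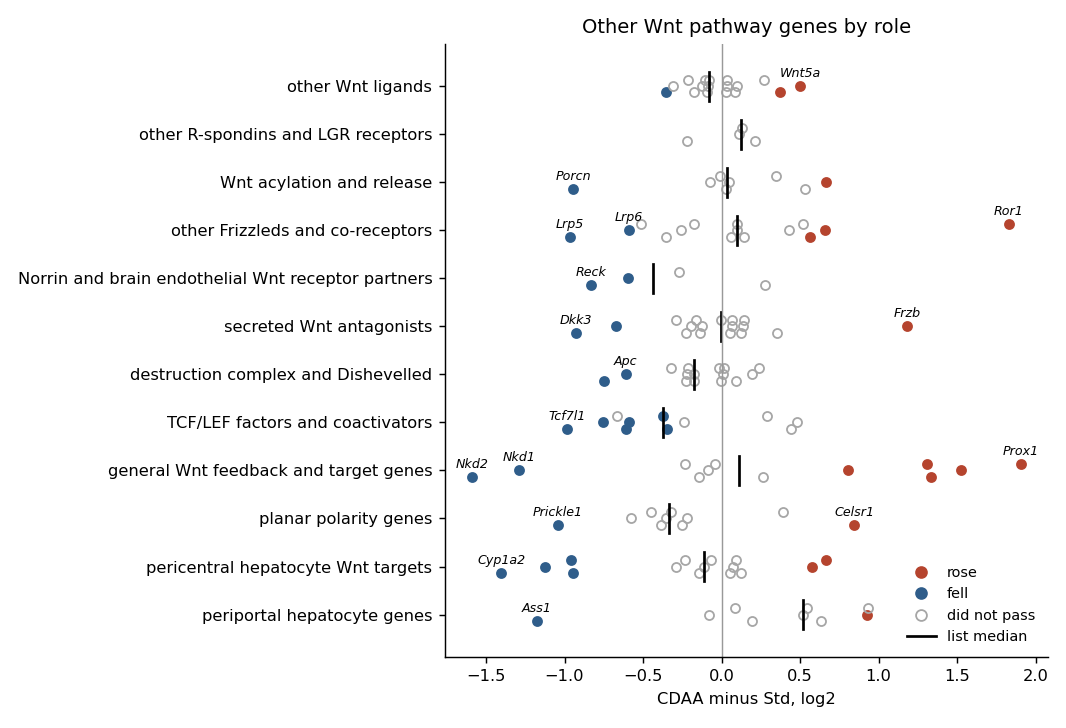
CDAA minus Std differences (x axis, log2) of the genes of 12 other Wnt pathway lists (y axis), 1 point a gene; red points rose, blue points fell, open grey points did not pass, and black bars are list medians. The widest spread in both directions is in the feedback and target list, with Nkd2 at -1.59 and Prox1 at 1.91.

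Genes known as Wnt targets or feedback regulators moved both ways, 5 of 12 rising and 2 falling, with a median of 0.11. The Dishevelled-binding feedback inhibitors Nkd2 and Nkd1 were those that fell. Nkd2 had 4.23, 4.70, 4.40, 4.58 and 4.58 in CDAA 1 to CDAA 5, against 6.32, 5.93, 5.73, 6.25 and 6.19 in Std 1 to Std 5. The nearest arrays of the diets, at 4.70 in CDAA and 5.73 in Std, lay far apart beside the spread within each diet, and Nkd2 fell by 1.59 ± 0.13 (SE, limma adjusted p = 3.15e-05). Nkd2 passed under every other fit run here, among them that with the endothelial covariate. Nkd1, named after its values were seen, fell by 1.29 ± 0.26 (limma adjusted p = 0.00541), to 6.01 ± 0.67 in CDAA against 7.30 ± 0.14 in Std (SD, n = 5 each). Axin2, the most used readout of the beta-catenin branch and also named after its values were seen, had 4.02, 4.40, 3.63, 4.43 and 4.43 in CDAA 1 to CDAA 5, against 4.36, 4.36, 4.07, 4.43 and 4.41 in Std 1 to Std 5. These groups overlapped, and the Axin2 difference was -0.15 (limma adjusted p = 0.618). Its signals lay near the array median of 3.89, with CDAA 3 below it, so a change could have been missed. The transcription factors Prox1 and Sox4 rose by 1.91 and 1.52, and the hyaluronan receptor Cd44 by 1.34. Prox1 marks lymphatic endothelium and hepatocytes, Sox4 occurs in bile duct progenitors and Cd44 in leukocytes, and all 7 measured cholangiocyte markers and 6 of 7 recruited macrophage markers rose in the same pools. What these other cells contributed was not tested. Without CDAA 1 and CDAA 3 Cd44 did not pass (0.88). In the planar polarity list 1 of 10 rose, the cadherin Celsr1 by 0.85, and 1 fell, Prickle1 by 1.04, with a median of -0.34.

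Genes that endothelial Wnts are known to maintain in hepatocytes were measured in the same isolate, and which cells their signals came from was not tested. Of 15 pericentral Wnt targets 4 fell and 2 rose, with a median of -0.11, but neither rise passed without CDAA 1, CDAA 2, CDAA 3, Std 1, Std 3, Std 4 or Std 5 in turn. The cytochrome Cyp1a2 fell by 1.40, Cyp2e1 fell by 1.13, Cyp2c29 fell by 0.95, and the glutamate transporter Slc1a2 fell by 0.96. Cyp2e1 had 5.98 to 7.48 in CDAA and 7.39 to 8.15 in Std, while Cyp1a2, Cyp2c29 and Slc1a2 had CDAA means under the array median. General hepatocyte markers had a median difference of 0.49, with 3 of 9 rising and 0 falling, and with their mean as a covariate these 4 passed. With the pan-endothelial mean or the stellate mean as a covariate only Cyp2e1 of the 4 passed. After pan-endothelial centring only Cyp1a2 passed, with Cyp2e1 at -0.38, Cyp2c29 at -0.19 and Slc1a2 at -0.21. Glul, glutamine synthetase, which was named after its values were seen, was at 10.99 ± 0.16 in CDAA and 11.11 ± 0.13 in Std (SD, n = 5 each, limma adjusted p = 0.547). Of 9 periportal hepatocyte genes, Ass1, of the urea cycle, fell by 1.18 and Hsd17b13, a lipid droplet protein, rose by 0.93, with a median of 0.52. The difference between the pericentral and the periportal list was not tested.

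Markers of endothelium by position in the sinusoid changed in part. Of 8 measured pericentral endothelial markers other than the ligands 4 fell and 0 rose, with a median of -0.65. Among those that did not pass, the adhesion molecule Selp and the thrombomodulin gene Thbd, both singled out after their values were seen, had positive differences of 0.80 and 0.15. Of 9 periportal endothelial markers 4 fell and 1, the scavenger receptor Cd36, rose (0.41), with a median of -0.48. No marker of this list rose without Std 4, nor with the pan-endothelial or the stellate mean as a covariate. Of 13 LSEC markers 11 fell, with a median of -0.87, and of 12 pan-endothelial markers 9 fell, with a median of -0.69. A loss of pericentral beyond other endothelial transcripts was not tested.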

How the data were processed

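RNA of 10 pools of CD146-bound liver cells was hybridised to Affymetrix arrays. The authors deposited RMA values on the log2 scale, per the labels and the submitters' processing notes; these were used unchanged, and scanner files and the array's genome build are not used here. CDAA 1 held 24921 distinct values and each other array at most 10080. Of 25428 probe sets, 24705 carried 1 gene symbol and 723 were unnamed (0 with several); 24673 matched the RefSeq gene table by Entrez identifier. Where a gene had 2 probe sets, which was 1 gene, the brighter by mean was kept, leaving 24704 genes.

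CDAA was compared with Std by limma 3.58.1 in R 4.3.3 (lmFit and eBayes), a two-sided test, p-values being adjusted by Benjamini-Hochberg across the 24704 genes (threshold 0.05). No filter on low values was applied. The number of arrays, 5 per diet, limits the precision, and no depth applies. The fit was tested on simulated data with independent noise for each gene, which does not cover deviations shared between genes as on these arrays. The 9 genes and all lists were chosen with earlier results of these data known. In each pathway list the genes named were the up to 4 with the largest differences past the threshold, or the 1 with the smallest p where none passed; Nkd1, Axin2 and Glul were added after their values were seen. Alternatives were a replicate block, other centring, marker means as covariates, an intensity trend, filters on low values, and arrays left out.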

Additional observations from a re-analysis of the deposited data

Results flagged for a closer look

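Of 140 groups of 5 arrays, covering 45 genes and 25 lists in 2 diets, 3 held an array whose gap to its nearest neighbour was large against the group's range, where chance gives about 1 group in 20. All 3 were Std 3. Its neutrophil marker mean was 9.15, against 3.99 to 4.26 in the other Std arrays. Its recruited macrophage mean was 6.03, against 5.01 to 5.11 in the others. Its Axin2 signal was 4.07, against 4.36 to 4.43. Without Std 3 the differences of Wnt9b and Fzd4 were -1.04 and -0.82 and still passed by limma, and that of Wls was -0.41 (limma adjusted p = 0.058).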

How the results depend on the processing

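The isolate's makeup limits these results: marker means moved with diet, so centring on them or using them as covariates takes up part of the diet difference, and why values moved was not tested. The pools number 5 per diet, and no detection call is used. Centring on pan-endothelial markers gave 19643 changed genes, 2612 passed without CDAA 1 and CDAA 3, and the pan-endothelial, stellate and hepatocyte covariates left 228, 82 and 1447. With each of these covariates 0 of the 9 genes passed by limma, and 1, 1 and 2 had an unadjusted p under 0.05. In the order centred, pan-endothelial covariate and stellate covariate, Wnt2 was at 0.041, 0.39 and 0.33, Wnt9b at -0.33, -0.12 and 1.1e-05, Rspo1 at 0.70, 0.19 and 0.32, Rspo3 at 0.36, 0.74 and 0.77, Wls at 0.36, 0.011 and 0.014, and Fzd4 at -0.068, -0.14 and -0.13. Rnf43 was at 0.81, -0.053 and -0.15, Lgr5 at 0.83 when centred and -0.014 with the stellate covariate, and Znrf3 at 1.11 when centred. With the hepatocyte covariate Wnt9b was at -0.66, Fzd4 at -0.56, Wls at -0.23, Rspo1 at 0.042, Rspo3 at 0.040 and Rnf43 at -0.027. Without CDAA 1 and CDAA 3 Wls was at -0.22, Rspo1 at 0.10, Rspo3 at 0.078 and Rnf43 at -0.053. Leaving out single arrays gave -0.87 to -0.49 for Wnt2, -0.45 to -0.31 for Wls, -0.10 to 0.070 for Rspo1 and -0.033 to 0.15 for Rnf43. Pan-endothelial centring moves the median of all genes to 0.73, so small falls turn sign by its construction, as for Adgra2 (0.16), Amer1 (0.000926), Apc (0.14), Bcl9 (0.16), Kremen1 (0.082), Lgr6 (0.53), Lrp6 (0.16), Pygo2 (0.14), Wnt9a (0.40), Axin2 (0.61) and Glul (0.64). Axin2 was also at 0.45, 0.30 and 0.082 with the pan-endothelial, stellate and hepatocyte covariates and at 0.092 without CDAA 1 and CDAA 3, and Glul at 0.11 and 0.18 with the pan-endothelial and stellate covariates. Of 823 values of 36 other named genes, 695 kept direction and call, 111 kept direction only and 17 turned. Lgr5 was not tested under the 2 filters on low values.

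With a replicate block 4178 genes passed, and Wnt2 passed at -0.71 (limma adjusted p = 0.0231). The pairing is not given by the labels: deviations of same-numbered arrays correlated at 0.0191, 0.139, 0.272, 0.364 and 0.180, and those of 2 CDAA arrays correlated better with another number.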

Other observations

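The 9 genes also varied among themselves within a diet. Over the 10 arrays, as deviations from each diet's mean, Wnt2 and Rspo3 had a Pearson r of 0.953, Wnt9b and Rspo3 of 0.924, Rspo3 and Fzd4 of 0.950 and Wnt2 and Wnt9b of 0.859, whereas Rspo1 and Rnf43 had -0.845. These are descriptions of arrays that share their cell makeup.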
